A study of Mus musculus with 30 samples.

Results

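The genes described here encode subunits of respiratory chain complexes II, III and IV and of the ATP synthase (complex V) that are read from the nuclear genome. They were chosen by symbol (the SDH, UQCR, CYC1, COX4 to COX8 and ATP5 names) and by a mean above 1 RPKM over all mice. RPKM scales the reads of a gene by exon length and by the number of mapped reads. Of 21073 genes in the table, 50 matched by symbol and 45 passed the level: 3 of complex II, 9 of complex III, 16 of complex IV and 17 of complex V. Of these 45 genes, 4 carry such a name but are not subunits: Uqcrh-ps1 is a pseudogene, COX7A2L (Cox7a2l) is a factor of respiratory supercomplexes, ATP5S is Dmac2l and ATP5SL is Dmac2, a gene of complex I assembly. Gene symbols are written as the deposited table spells them.

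The study measured gene expression by RNA-Seq in the extensor digitorum longus (EDL), a fast muscle of the lower leg, in a mouse model of multiple sclerosis. Experimental autoimmune encephalomyelitis (EAE) was induced in female SJL/J mice with a myelin peptide in complete Freund's adjuvant (CFA). Control mice were either not immunized (Ctrl) or received ovalbumin (OVA) in CFA, so that the OVA mice share the adjuvant with the EAE mice. Muscles were taken on day 14, the peak of disease, and on day 40, a phase of chronic remission, from 5 mice in each of the 6 groups. No engineered genotype is named for these SJL/J mice, each was sampled once, and their age is not given in the sources used here. The estimated depth was 18100000 to 31600000 reads per mouse.

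Complex II is succinate dehydrogenase, which passes electrons from the citric acid cycle to ubiquinone. Complex III passes them on to cytochrome c, complex IV (cytochrome c oxidase, COX) passes them to oxygen, and complex V uses the proton gradient to make ATP. Complexes III, IV and V are built from nuclear and mitochondrially encoded subunits together, while complex II has nuclear subunits alone. Several complex IV subunits exist in a ubiquitous form and in a form that is made mainly in heart and skeletal muscle, as for COX6A1 and COX6A2, COX7A2 and COX7A1, and COX8A and COX8B.

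The promoters of 34 of the 45 genes were found in the RefSeq promoter table (GRCm38.p6). The 250 bases before the start site of 4 of them are shown, 5′ to 3′, because the levels of these genes carry the results below: the muscle and the ubiquitous form of COX subunit 7a, the catalytic subunit of complex II, and the complex V gene with the largest difference on day 14. Capitals mark letters that match GCGCATGC or the NRF1 palindrome (GCGCA, any base, GCGC), 2 overlapping forms of the NRF1 site, or GGGCGG, the SP1 box. Cox7a1 lies at chr7:30183921-30184170 on the plus strand, COX7A2 at chr9:79759854-79760103 on the minus strand, SDHA at chr13:74350241-74350490 on the minus strand and Atp5k at chr5:108434400-108434649 on the minus strand.
Cox7a1: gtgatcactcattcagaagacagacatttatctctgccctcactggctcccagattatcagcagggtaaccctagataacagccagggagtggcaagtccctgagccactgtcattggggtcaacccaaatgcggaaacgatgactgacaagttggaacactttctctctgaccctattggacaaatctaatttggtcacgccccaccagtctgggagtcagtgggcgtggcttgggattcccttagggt
COX7A2: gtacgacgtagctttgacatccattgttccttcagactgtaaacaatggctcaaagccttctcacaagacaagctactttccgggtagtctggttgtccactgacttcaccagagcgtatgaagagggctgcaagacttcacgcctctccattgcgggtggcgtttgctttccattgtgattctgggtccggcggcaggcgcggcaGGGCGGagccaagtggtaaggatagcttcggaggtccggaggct
SDHA: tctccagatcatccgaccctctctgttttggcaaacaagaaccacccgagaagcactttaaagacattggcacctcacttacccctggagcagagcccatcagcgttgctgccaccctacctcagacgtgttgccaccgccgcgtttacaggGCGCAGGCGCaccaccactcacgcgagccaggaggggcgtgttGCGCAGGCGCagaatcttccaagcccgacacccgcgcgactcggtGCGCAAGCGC
Atp5k: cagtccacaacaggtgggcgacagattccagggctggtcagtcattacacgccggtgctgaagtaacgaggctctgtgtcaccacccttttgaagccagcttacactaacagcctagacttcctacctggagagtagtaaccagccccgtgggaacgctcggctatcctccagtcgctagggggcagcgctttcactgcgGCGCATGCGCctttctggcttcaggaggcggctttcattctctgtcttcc

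Shares are given for the members, for 6783 promoters of expressed genes and for all 27025 promoters. Expressed genes are those with a mean above 3 RPKM over the 30 mice, a level to which the members were not held. On both strands, GCGCATGC was present in 5 of the 34 members' promoters (14.7%), in 5.13% of those of expressed genes and in 2.32% of all. The NRF1 palindrome, which can overlap it, was present in 14.7%, 9.49% and 3.86%. The ETS core CCGGAAG was present in 17.6%, 15.1% and 7.05%, and the ERR core AAGGTCA in 5.88%, 2.77% and 4.05%. GGGCGG was present in 32.4% of the members' promoters, in 61.2% of those of expressed genes and in 32.9% of all. E-boxes (CAGCTG) were present in 5.88%, 11.4% and 12.8%, and TATAAA in 2.94%, 6.4% and 13%. No member's promoter held AAGATGG or AANATGGC, 2 overlapping YY1 cores, or the MEF2 site in this window. These were rare elsewhere too, in 4.61%, 4.7% and 0.634% of the promoters of expressed genes. The promoter shown for Cox7a1 held no match to any of these letters, that of SDHA held 3 matches to the NRF1 palindrome and that of COX7A2 held 1 GGGCGG.

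The members are among the abundant transcripts of the EDL. Of the 45 genes, 33 had a mean above 100 RPKM over the 30 mice and 4 a mean above 1000 RPKM (ATP5B, Cox4I1, ATP5A1 and ATP5G3, with 2037.8, 1360.2, 1234.7 and 1065.8 RPKM). ATP5B and ATP5A1 encode the β and α subunits of the catalytic head of complex V, Cox4I1 the ubiquitous form of COX subunit 4, and ATP5G3 the proton-carrying ring subunit c. The mean was below 10 RPKM for 5 members, among them COX4I2 (4.55 RPKM), the lung form of COX subunit 4, and COX6B2 (1.23 RPKM), the testis form of subunit 6b, which was too low to be tested. The 5 genes that matched by symbol but missed the level were SDHD (0.44 RPKM), UQCR11 (0.0667 RPKM), Atp5c1-ps (0.421 RPKM), and COX8C and Cox7b2, both listed at 0 RPKM. SDHD, a membrane anchor of complex II, therefore stood far below its partners SDHA (360.9 RPKM), SDHB (508.1 RPKM) and SDHC (428.0 RPKM), whose products it joins in 1 complex. It was between 0.0794 and 1.23 RPKM in every mouse, and the cause of the low SDHD and UQCR11 values was not tested. No other transcript was at least 95% identical to SDHD or UQCR11 over 50% of its length.

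The summed level of the 45 genes was lowest in EAE mice on day 14. It was 25760.6 ± 4675.6 RPKM (SD, n = 5) in Ctrl mice, 26170.2 ± 6095.1 RPKM in OVA mice and 15087.7 ± 2250.2 RPKM in EAE mice on that day. The highest EAE mouse (18252.9 RPKM) lay under the lowest Ctrl mouse (20076.7 RPKM) and the lowest OVA mouse (20557.3 RPKM). On day 40 the sums were 17718.5 ± 2528.7 RPKM in Ctrl mice, 18410.1 ± 606.8 RPKM in OVA mice and 20864.5 ± 2416.5 RPKM in EAE mice, and the 3 groups overlapped. Lower values in whole muscle can come from fewer cells of a type or from less RNA per cell, and these cannot be told apart here.

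Whether active EAE is accompanied by lower transcript levels of the complexes was asked on day 14. A gene passed when limma's adjusted p was below 0.05 over all tested genes, and the size is the log2 fold change of RPKM plus 0.1. Against Ctrl mice, 36 of 44 tested members were lower and 0 were higher in EAE mice, while 19.0% of all 8771 tested genes were lower and 28.8% were higher. The median log2 fold change of the members was -0.77 (range -2.06 to 0.14), and that of all tested genes was 0.11. Of the 44 members, 30 were also over 1.5-fold lower (11.8% of all tested genes), and in 24 the EAE mice did not overlap the Ctrl mice (11.0%). Against OVA mice, 37 of 44 were lower and 0 higher, with a median of -0.77, beside 15.3% lower and 23.8% higher among 8674 tested genes with a median of 0.11. Of these, 33 were over 1.5-fold lower (9.28% of all tested genes) and 23 did not overlap (8.20%). Both comparisons use the same EAE mice. With the 4 genes that are not subunits left out, 33 of 40 were lower against Ctrl mice and 34 of 40 against OVA mice.

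The medians of the complexes lay close to each other. Against Ctrl mice the median was -0.78 in complex II (3 of 3 lower), -0.75 in complex III (9 of 9), -0.77 in complex IV (11 of 15) and -0.76 in complex V (13 of 17). Against OVA mice it was -0.77 (3 of 3), -0.78 (9 of 9), -0.68 (11 of 15) and -0.77 (14 of 17). The 38 complex I subunits gave medians of -0.77 and -0.71, with 32 lower in either comparison. No test between complexes was made, since their genes are not independent.

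**Figure D1:**
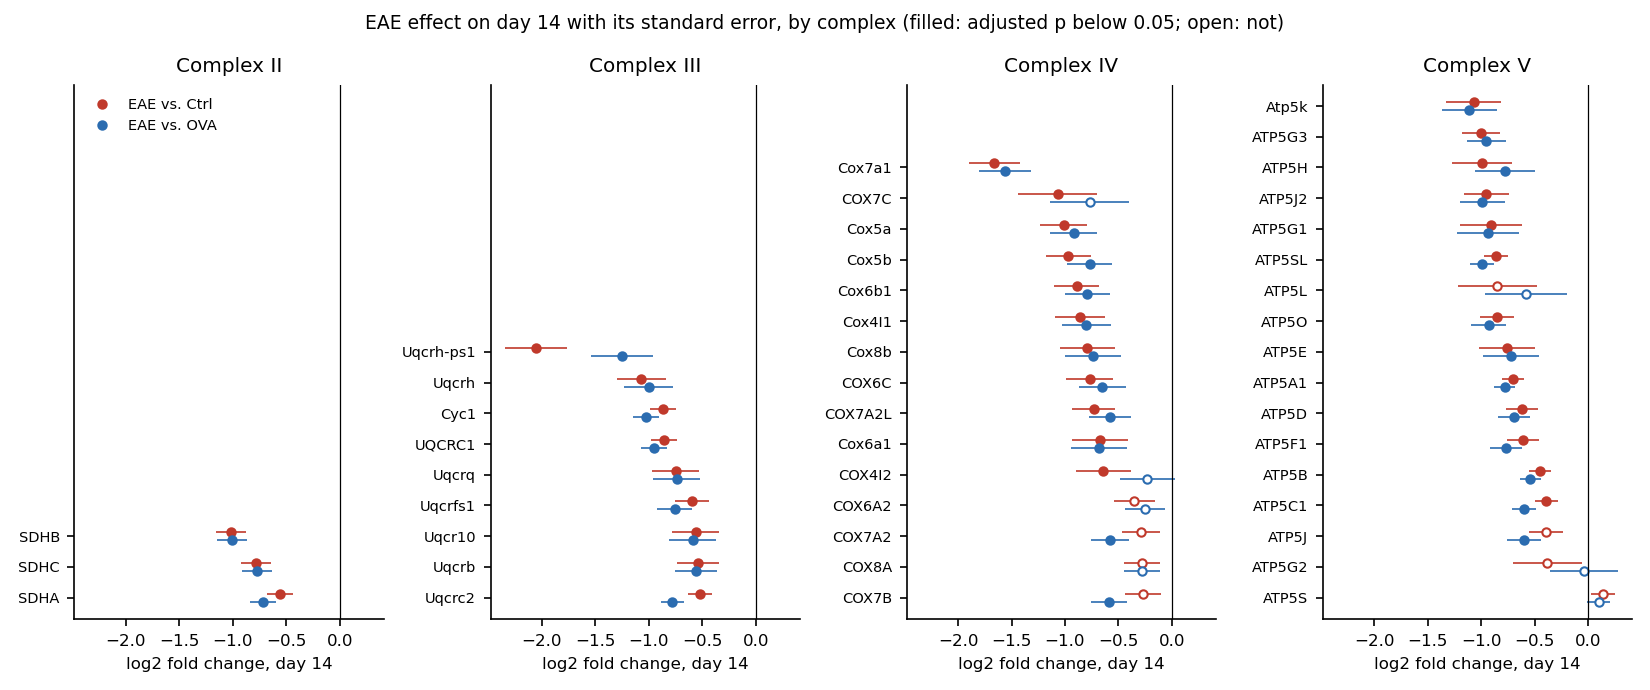
Log2 fold change of each member on day 14 with its standard error, by complex, for EAE vs. Ctrl (red) and EAE vs. OVA (blue), where filled points passed an adjusted p of 0.05. Nearly every point lies below 0, Cox7a1 and Uqcrh-ps1 lie farthest below it, and ATP5S lies above it at 0.14 and 0.10.

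In complex II, SDHB, the iron-sulfur subunit, had the largest difference. The 5 Ctrl mice had 511.0, 607.0, 622.7, 639.1 and 716.6 RPKM, the 5 OVA mice 494.2, 537.0, 549.9, 739.7 and 775.8 RPKM, and the 5 EAE mice 246.8, 305.0, 308.1, 312.9 and 352.8 RPKM. The EAE mice thus lay below every control mouse. SDHB was 2.03-fold lower than in Ctrl mice (-1.02 on the log2 scale with an SE of 0.14, adjusted p = 5.65e-05) and differed by -1.01 from OVA mice (adjusted p = 7.48e-05). SDHC, a membrane anchor, was at 491.0 ± 42.6, 494.0 ± 87.1 and 288.1 ± 45.9 RPKM in Ctrl, OVA and EAE mice, with differences of -0.78 (adjusted p = 0.000351) and -0.77 (adjusted p = 0.000433).

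SDHA, the flavoprotein with the catalytic site, gave the smallest difference of complex II. It was 309.4, 377.9, 390.0, 398.4 and 408.5 RPKM in Ctrl mice, 352.9, 414.2, 441.3, 446.2 and 446.4 RPKM in OVA mice and 209.0, 229.8, 266.9, 273.5 and 300.6 RPKM in EAE mice. The EAE mice lay below all control mice, although the highest EAE mouse and the lowest Ctrl mouse were close. The log2 fold change was -0.56 (SE 0.12, adjusted p = 0.00148) against Ctrl and -0.72 (adjusted p = 0.000267) against OVA mice. SDHA was also the member least like the others from mouse to mouse. Within groups its Pearson correlation with the mean of the other members was -0.35 over 30 mice. It was 0.02 for Uqcrc2, 0.12 for ATP5S and 0.98 for Cox6b1. The exons of SDHA, Uqcrc2, ATP5S and Cox6b1 span 2900, 1896, 1485 and 618 bases, and the part of length was not tested. These correlations are a description that shares the libraries and their depth.

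In complex III, cytochrome c1 (Cyc1), the heme subunit that hands electrons to cytochrome c, had the lowest adjusted p in both comparisons. Its values were 418.5, 454.9, 494.7, 548.6 and 549.5 RPKM in Ctrl mice, 497.5, 508.3, 529.3, 558.7 and 646.2 RPKM in OVA mice and 227.2, 254.6, 259.3, 301.6 and 303.4 RPKM in EAE mice. All EAE mice lay below all control mice. The log2 fold change was -0.87 (SE 0.12, adjusted p = 3.92e-05) against Ctrl and -1.03 (adjusted p = 1.21e-05) against OVA mice. UQCRC1, a core subunit, changed by -0.86 (adjusted p = 4.41e-05) and -0.95 (adjusted p = 2.21e-05).

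Uqcrh, the hinge subunit near cytochrome c1, had the largest difference among the complex III subunits against Ctrl mice. It was 577.2 to 1320.9 RPKM in Ctrl mice (median 815.4), 620.3 to 1171.9 RPKM in OVA mice (median 664.3) and 291.8 to 543.5 RPKM in EAE mice (median 399.2), and the EAE mice lay below the controls. The log2 fold change was -1.07 (SE 0.23, adjusted p = 0.00154) against Ctrl mice, and the level was 0.499 times that of OVA mice (adjusted p = 0.00301). Its pseudogene Uqcrh-ps1 gave -2.06 (adjusted p = 5.76e-05) against Ctrl mice and -1.25 (adjusted p = 0.0034) against OVA mice, at no more than 11.0 RPKM in any mouse. Against Ctrl mice the smallest differences in complex III were those of Uqcrc2 (-0.52, adjusted p = 0.00122), the second core subunit, and Uqcrb (-0.54, adjusted p = 0.0387), a ubiquinone-binding subunit. Against OVA mice Uqcrc2 gave -0.78 (adjusted p = 5.48e-05) and Uqcrb -0.56 (adjusted p = 0.0384).

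In complex IV, Cox7a1, the muscle form of subunit 7a, had the largest difference of any protein-coding member. It was 705.8, 923.8, 967.7, 1014.3 and 1271.8 RPKM in Ctrl mice, 652.9, 698.8, 746.0, 1137.5 and 1472.8 RPKM in OVA mice and 181.7, 305.4, 341.8, 350.6 and 384.5 RPKM in EAE mice. Every EAE mouse was far below every control mouse. Cox7a1 was 3.17-fold lower than in Ctrl mice (log2 fold change -1.66, SE 0.24, adjusted p = 7.65e-05) and differed by -1.56 from OVA mice (adjusted p = 0.000149). Its ubiquitous counterpart COX7A2 was 20.4, 24.6, 31.1, 31.8 and 31.9 RPKM in Ctrl mice, 27.0, 28.1, 33.5, 35.1 and 49.2 RPKM in OVA mice and 19.2, 20.5, 20.7, 22.6 and 31.7 RPKM in EAE mice. These groups overlapped, and the difference of COX7A2 was -0.29 (adjusted p = 0.196) against Ctrl and -0.58 (adjusted p = 0.0182) against OVA mice.

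Other complex IV subunits also fell. Cox5a and Cox5b, which bind at the matrix side, changed by -1.01 (adjusted p = 0.00193) and -0.97 (adjusted p = 0.00138) against Ctrl mice, and Cox4I1 by -0.86 (adjusted p = 0.00627). COX7C gave -1.07 against Ctrl mice (SE 0.37, adjusted p = 0.0271) but -0.77 with an adjusted p of 0.111 against OVA mice. COX6A2, the muscle form of subunit 6a (-0.35 and -0.25, adjusted p = 0.13 and 0.306), and COX8A, the ubiquitous form of subunit 8 (-0.28 and -0.28, adjusted p = 0.198 and 0.211), passed in neither comparison. The difference of COX6A2 against OVA mice changed sign under quantile normalization. COX7B, an X-linked subunit, gave -0.27 (adjusted p = 0.199) against Ctrl and -0.59 (adjusted p = 0.0126) against OVA mice. COX4I2 gave -0.64 (adjusted p = 0.0494) against Ctrl and -0.23 (adjusted p = 0.486) against OVA mice.

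**Figure D2:**
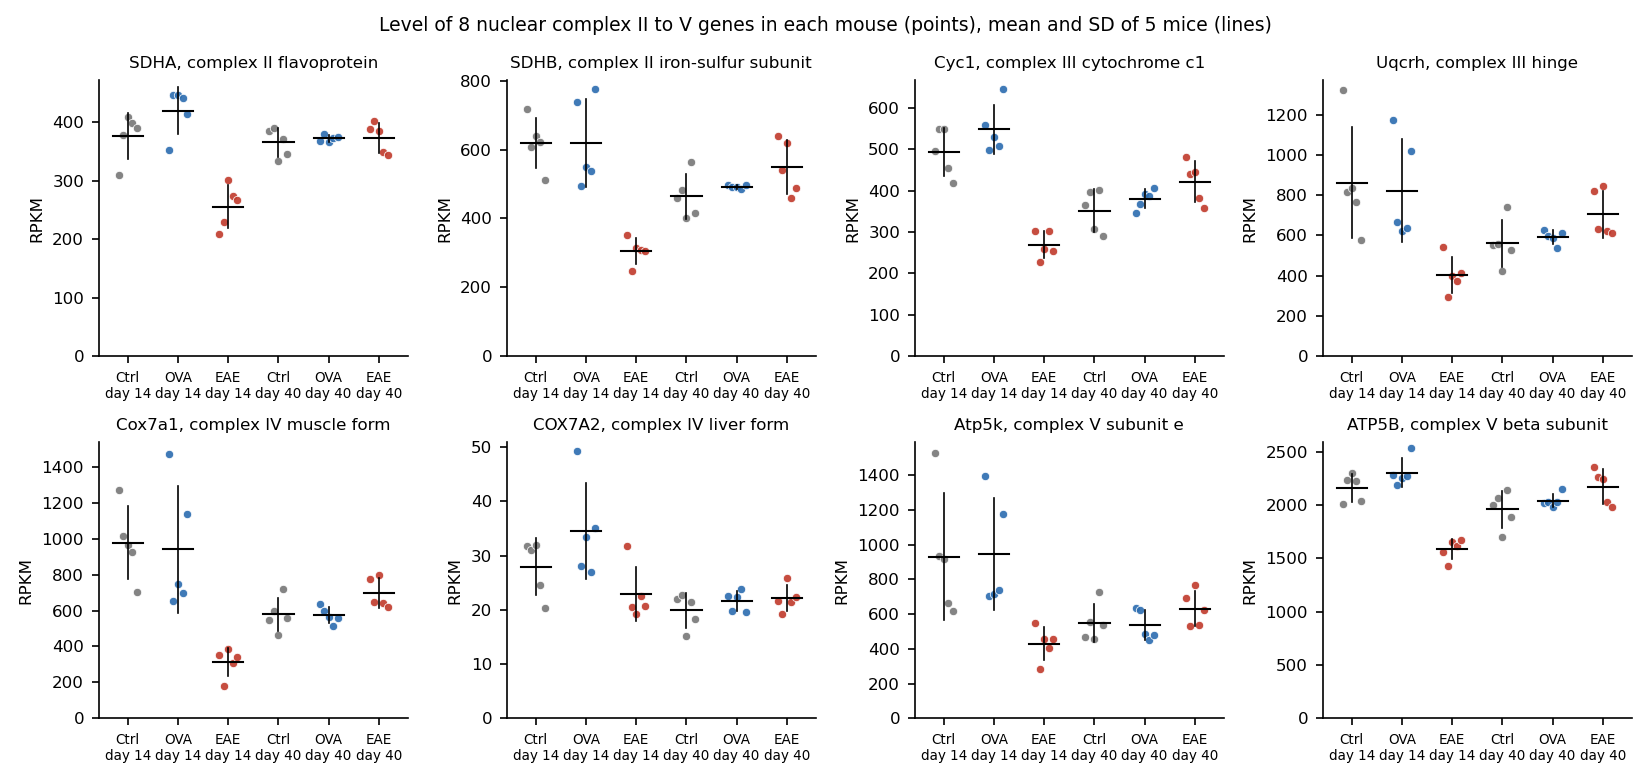
RPKM of 8 members in each of the 30 mice by group and day, with the mean and SD of 5 mice as lines. On day 14 the EAE mice lie below the control mice for SDHB, SDHA, Cyc1, Uqcrh, Cox7a1, Atp5k and ATP5B, and overlap them for COX7A2, while on day 40 the groups overlap.

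In complex V, Atp5k, the e subunit of the membrane part, had the largest difference. It was 617.1, 661.2, 917.1, 934.4 and 1526.7 RPKM in Ctrl mice, 706.4, 713.4, 736.1, 1175.3 and 1396.2 RPKM in OVA mice and 282.9, 407.0, 456.9, 458.5 and 546.7 RPKM in EAE mice. The EAE mice lay below all control mice, which themselves spread widely. The log2 fold change was -1.07 (SE 0.26, adjusted p = 0.00344) against Ctrl and -1.11 (adjusted p = 0.00344) against OVA mice. ATP5G3 was 1.99-fold lower than in Ctrl mice (adjusted p = 0.000467) and differed by -0.95 from OVA mice (adjusted p = 0.000813), and ATP5H, subunit d of the stalk, by -0.99 (adjusted p = 0.00849) and -0.78 (adjusted p = 0.0352).

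The most abundant member, ATP5B, changed less but with little spread. It was 2007.2, 2039.9, 2225.8, 2235.2 and 2301.7 RPKM in Ctrl mice, 2183.2, 2256.2, 2267.6, 2283.1 and 2533.6 RPKM in OVA mice and 1432.9, 1563.0, 1615.4, 1657.4 and 1672.1 RPKM in EAE mice. The highest EAE mouse stayed well below the lowest control mouse, and the log2 fold change was -0.45 (SE 0.10, adjusted p = 0.00161) and -0.54 (adjusted p = 0.000496). Its partner ATP5A1 changed by -0.70 (adjusted p = 4.22e-05) and -0.78 (adjusted p = 2.03e-05). The lowest adjusted p of the module belonged to ATP5SL, the complex I assembly gene, at 20.8 ± 2.44, 22.7 ± 2.54 and 11.4 ± 1.20 RPKM in Ctrl, OVA and EAE mice (-0.86, adjusted p = 2.01e-05, and -0.99, adjusted p = 8.38e-06). ATP5S, at 7.29 ± 1.20, 7.43 ± 0.529 and 8.00 ± 0.81 RPKM, gave 0.14 (adjusted p = 0.305) and 0.10 (adjusted p = 0.491). ATP5G2, a subunit c gene at 3.98 to 15.6 RPKM in Ctrl mice, gave -0.38 (adjusted p = 0.334) and -0.04 (adjusted p = 0.929). The sign changed for ATP5S with the GC correction in both comparisons, and for ATP5G2 against OVA mice with the length correction.

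Some of these calls were lost when 1 mouse was left out, and some members share sequence with other genes. Leaving out 1 mouse at a time gave 29 to 37 lower members against Ctrl mice and 28 to 38 against OVA mice, and the lowest count of each came without EAE replicate 2. In both comparisons ATP5E, Cox6a1, Cox8b, Uqcr10 and Uqcrb lost the call in at least 1 such fit. Against Ctrl mice COX4I2 and COX7C did so as well, and against OVA mice ATP5G1, ATP5H, COX6C and COX7A2L. ATP5L (9 near-identical genes), ATP5H, Uqcrb and ATP5G2 (3 each) and ATP5G1, COX7C, ATP5O, ATP5C1 and Atp5k (1 each) have copies elsewhere in the genome, mostly pseudogenes, between which the counting could have split reads. Of these 9 members, ATP5L and ATP5G2 passed in neither comparison, and what the copies did to the values was not tested. Exons of Cox4I1, COX6A2, COX6C, ATP5A1, ATP5D, ATP5J, ATP5O, Uqcrb and Uqcrc2 overlap another protein-coding gene. The kit keeps the strand, but whether the counting used it is not given in the sources used here.

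Whether the forms of a subunit moved together was examined as a log2 ratio in each mouse. The COX6A, COX7A and COX8 pairs set the muscle form over the ubiquitous form. COX4I2/COX4I1 sets the lung form over the ubiquitous form, and ATP5G1/ATP5G3 compares subunit c genes. The COX7A1/COX7A2 ratio was 4.92, 5.02, 5.11, 5.23 and 5.32 in Ctrl mice, 4.47, 4.53, 4.69, 4.90 and 5.01 in OVA mice and 3.14, 3.46, 3.75, 4.04 and 4.32 in EAE mice on day 14. The EAE mice lay below all control mice, with a mean of 3.74 ± 0.46 against 5.12 ± 0.16 (Ctrl) and 4.72 ± 0.23 (OVA). Both differences (-1.38 and -0.98) had an exact permutation p of 0.00794, which is the smallest that 5 against 5 mice can give, and an adjusted p of 0.0794 over the 30 ratio comparisons. OVA mice differed from Ctrl mice by -0.40 (exact permutation p = 0.0159, 0.0952 after adjustment). The day 40 means were 4.85 ± 0.18, 4.72 ± 0.19 and 4.97 ± 0.15 in Ctrl, OVA and EAE mice.

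The other pairs moved less, and not all in the same direction. COX8B/COX8A was 3.13 ± 0.27 in EAE mice on day 14, against 3.65 ± 0.15 in Ctrl mice (difference -0.51, exact permutation p = 0.00794, adjusted p = 0.0794) and 3.59 ± 0.36 in OVA mice (difference -0.45, exact permutation p = 0.0476, adjusted p = 0.204). The EAE mice (2.80 to 3.50) lay just below the Ctrl mice (3.51 to 3.88). COX6A2/COX6A1 was 4.38 ± 0.28 in EAE mice, above the mean of Ctrl mice (4.06 ± 0.16, exact permutation p = 0.0714, adjusted p = 0.214) and of OVA mice (3.95 ± 0.20, exact permutation p = 0.0317, adjusted p = 0.159). COX4I2/COX4I1 was -7.93 ± 0.23 in EAE mice, -8.14 ± 0.20 in Ctrl mice (exact permutation p = 0.175, adjusted p = 0.374) and -8.49 ± 0.29 in OVA mice (exact permutation p = 0.0159, adjusted p = 0.0952). ATP5G1/ATP5G3 was -6.02 ± 0.23, -6.11 ± 0.21 and -6.03 ± 0.41 in EAE, Ctrl and OVA mice. No ratio had an adjusted p below 0.05 on either day. Over 30 comparisons a complete separation, at the smallest exact permutation p of 0.00794, could not pass alone. The lack of a call therefore does not show that the ratios were equal.

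**Figure D3:**
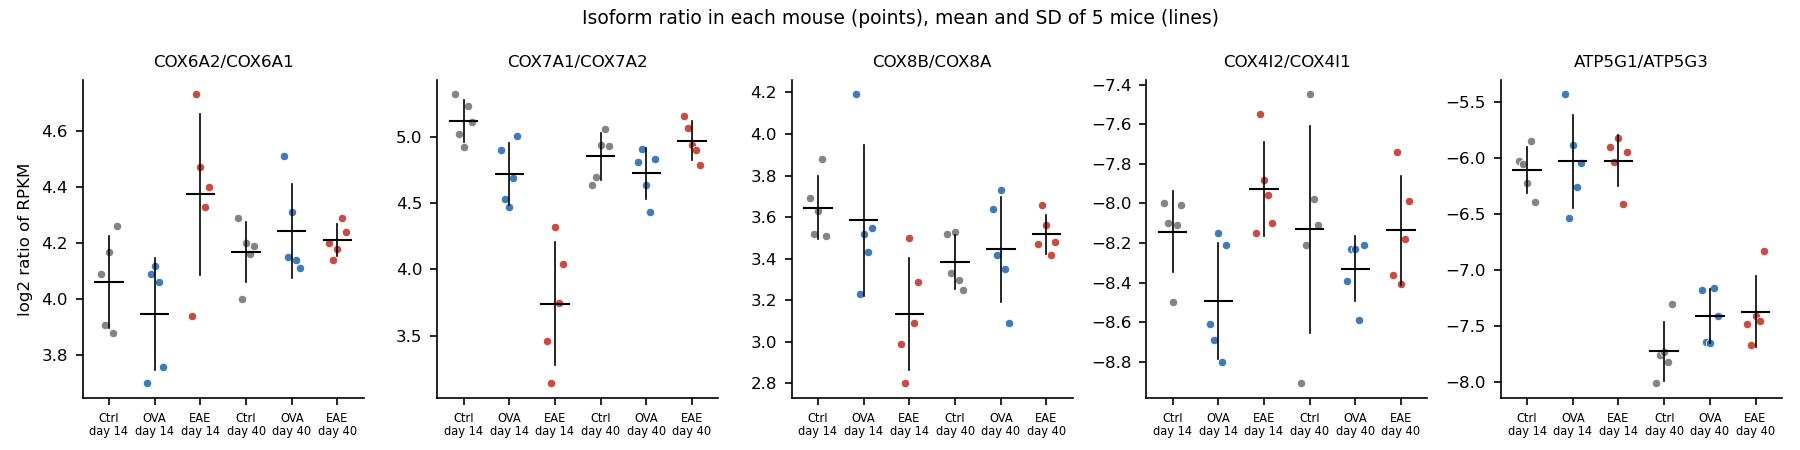
Log2 ratio of the 2 forms of 5 subunits in each mouse by group and day, from RPKM plus 0.1, with the mean and SD of each group as lines. On day 14 the COX7A1/COX7A2 ratio of the EAE mice (3.14 to 4.32) lies below that of all control mice, and the COX6A2/COX6A1 ratio does not.

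Immunization with OVA in CFA was compared with no immunization, which takes the antigen and the adjuvant together. On day 14, 0 of 44 members passed in limma's test and 2 had an unadjusted p below 0.05 (9.69% of all tested genes had one), with a median of 0.01 (range -0.81 to 0.32), while 0.0590% of all 8471 tested genes were lower and 0.0944% higher. The 2 were Uqcrh-ps1 (-0.81, adjusted p = 0.381) and Uqcrc2 (0.26, adjusted p = 0.445). On day 40, 0 of 43 passed and 1 had an unadjusted p below 0.05 (3.12% of all tested genes), with a median of 0.06, and 0% of all tested genes passed. OVA replicates 1 and 5 were the highest of their group on day 14, with a median of 0.46 and 0.34 over the members relative to the Ctrl mean, and the other 3 were at -0.33, -0.21 and -0.25.

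On day 40 the members of EAE mice no longer lay below those of controls. Against Ctrl mice 1 of 43 tested members was higher and 0 were lower, beside 0.288% and 2.35% of all tested genes, and that 1 was over 1.5-fold higher (0.0690%). The median was 0.24, 41 of 43 values were above 0 (59.7% of all tested genes were below 0) and 26 had an unadjusted p below 0.05 (27.9% of all tested genes). The gene that passed was ATP5G1, a subunit c gene, at 3.28, 3.64, 4.45, 4.91 and 4.93 RPKM in Ctrl mice, 4.56, 5.00, 6.21, 6.48 and 6.48 RPKM in OVA mice and 5.14, 5.46, 7.23, 7.34 and 8.35 RPKM in EAE mice. The EAE mice lay above the Ctrl mice and overlapped the OVA mice (log2 fold change 0.64, SE 0.15, adjusted p = 0.042 against Ctrl). This call was lost with no filter on low values, quantile normalization, only the compared groups, all 30 mice in 1 model or the replicate block (adjusted p from 0.0538 to 0.338). Leaving out 1 mouse at a time gave 28 higher members without Ctrl replicate 4, 1 without EAE replicate 2 or 4, and 0 without any of the other 7. Against OVA mice 0 of 43 passed in limma's test, beside 0.0582% of all tested genes higher (0.0349% over 1.5-fold) and 0.582% lower. All 43 values were above 0 (61.0% of all tested genes were below 0), 9 had an unadjusted p below 0.05 (17.4% of all tested genes) and the median was 0.18. Both comparisons use the same EAE mice.

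How far the EAE effect changed from day 14 to day 40 was tested by interaction terms over all 30 mice. Against Ctrl mice the effect was higher on day 40 than on day 14 in 39 of 44 members (37 by over 1.5-fold) and lower in 0, with a median change of 1.01. Of all 9013 tested genes, 16.5% were higher (11.7% by over 1.5-fold), 32.1% were lower and the median was -0.15. Against OVA mice it was higher in 37 of 44 (all 37 by over 1.5-fold), with a median of 0.94. Of 8935 tested genes, 11.1% were higher (8.16% by over 1.5-fold), 24.0% were lower and the median was -0.16. By complex, 3 of 3, 9 of 9, 13 of 15 and 14 of 17 members of complexes II to V changed against Ctrl mice, and 3 of 3, 9 of 9, 11 of 15 and 14 of 17 against OVA mice. Among protein-coding members the change was largest for Cox7a1 in both comparisons (1.94, SE 0.28, adjusted p = 4.4e-06, and 1.84, adjusted p = 1.06e-05). It was 1.26 for SDHB (adjusted p = 3.4e-06), 1.14 for Cyc1 (adjusted p = 2.01e-06), 1.27 for Atp5k (adjusted p = 0.00144) and 0.59 for SDHA (adjusted p = 0.000634) against Ctrl mice. ATP5S (-0.17), ATP5G2 (0.70), ATP5L (0.72), COX7A2 (0.45) and COX8A (0.43) did not pass against Ctrl mice, with adjusted p from 0.0875 to 0.273. The change of the OVA effect passed in 0 of 44 members in limma's test (1 had an unadjusted p below 0.05, beside 9.30% of all tested genes), and 0% of all tested genes passed.

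Levels differed between the days in the control groups as well. Between day 14 and day 40, 35 of 44 members fell and 0 rose in Ctrl mice (22 fell by over 1.5-fold, median -0.59), beside 12.6%, 18.9% and 4.35% of all tested genes. Under quantile normalization 21 fell, 9 of them by over 1.5-fold, and 2 rose (median -0.29), and with a correction for transcript length 19 fell, 6 of them by over 1.5-fold, and 1 rose (median -0.17). In OVA mice 27 of 44 fell and 0 rose (18 fell by over 1.5-fold, median -0.51), beside 3.40%, 5.92% and 1.71%. Under quantile normalization 16 fell, 9 of them by over 1.5-fold. In both control groups the counts over 1.5-fold were also lower without the 3 day 14 mice highest in short transcripts. In OVA mice this was so with the length correction as well, and these counts are given in the closing section. Of all 583 tested genes of 360 to 1000 bases, 266 fell in Ctrl mice, 173 of them by over 1.5-fold. In OVA mice 104 of 578 fell, 82 by over 1.5-fold. Of the 27 tested members of up to 1000 bases, 25 fell in Ctrl mice (20 by over 1.5-fold) and 18 in OVA mice (15). Above 1000 bases, 837 of 8176 tested genes fell in Ctrl mice and 186 of 8042 in OVA mice. Of the 17 members above 1000 bases, 10 and 9 fell. In EAE mice 24 of 43 rose and 1 fell (by over 1.5-fold), with a median of 0.45, beside 17.8%, 31.3% and 12.7%. Single mice weighed on these counts: without Ctrl day 14 replicate 1 or Ctrl day 40 replicate 3, 22 and 23 members fell in Ctrl mice, and without OVA day 14 replicate 1 or 5, 12 fell in OVA mice in either fit. These comparisons between days were added after the data had been seen, and the days hold different mice.

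Members differed in their course. Cox7a1 fell from 976.7 ± 202.9 to 579.0 ± 93.5 RPKM in Ctrl mice (-0.74, SE 0.19, adjusted p = 0.00865) and rose from 312.8 ± 78.5 to 697.9 ± 83.2 RPKM in EAE mice (1.20, adjusted p = 1.28e-05). SDHB changed by -0.42 (adjusted p = 0.0162) in Ctrl mice and by 0.85 (adjusted p = 2.97e-06) in EAE mice. SDHA and Uqcrc2 did not pass in Ctrl mice (-0.04 and 0.03, adjusted p = 0.756 and 0.802) and rose by 0.55 (adjusted p = 1.55e-05) and 0.68 (adjusted p = 2.19e-07) in EAE mice, from 256.0 ± 36.4 to 373.6 ± 26.0 RPKM for SDHA. ATP5B was at 2162.0 ± 130.2 and 1958.3 ± 170.6 RPKM in Ctrl mice (adjusted p = 0.135) and rose from 1588.2 ± 96.6 to 2172.5 ± 162.7 RPKM in EAE mice (0.45, adjusted p = 2.16e-05).

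ATP5G1 had the largest fall between the days in Ctrl and OVA mice. It was 20.0 ± 5.39, 21.9 ± 10.9 and 10.5 ± 2.69 RPKM in Ctrl, OVA and EAE mice on day 14 and 4.24 ± 0.75, 5.74 ± 0.902 and 6.70 ± 1.36 RPKM on day 40. The difference between the days was -2.18 in Ctrl mice (SE 0.25, adjusted p = 6.59e-07), -1.78 in OVA mice (adjusted p = 2.21e-05) and -0.63 in EAE mice (adjusted p = 0.0341), where it was the single member that fell. The call in EAE mice was lost with no filter on low values, median-of-ratios scaling, quantile normalization or the length or GC correction (adjusted p from 0.0535 to 0.172), and in 5 of 10 fits that left out 1 mouse. Next to it in Ctrl mice were Uqcrh-ps1 (-2.03, adjusted p = 0.000389), COX7C (-1.56, adjusted p = 0.00269), Cox5b (-1.38, adjusted p = 1.09e-05) and ATP5H (-1.25, adjusted p = 0.001). Its ratio to ATP5G3 was -7.72 ± 0.26, -7.41 ± 0.24 and -7.37 ± 0.32 in Ctrl, OVA and EAE mice on day 40. ATP5G1 has 1 near-identical pseudogene. Its exon length of 4778 bases in GENCODE is longer than the whole gene in RefSeq (chr11:96072793-96075694), so its length class and its values with the length correction are uncertain.

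**Figure D4:**
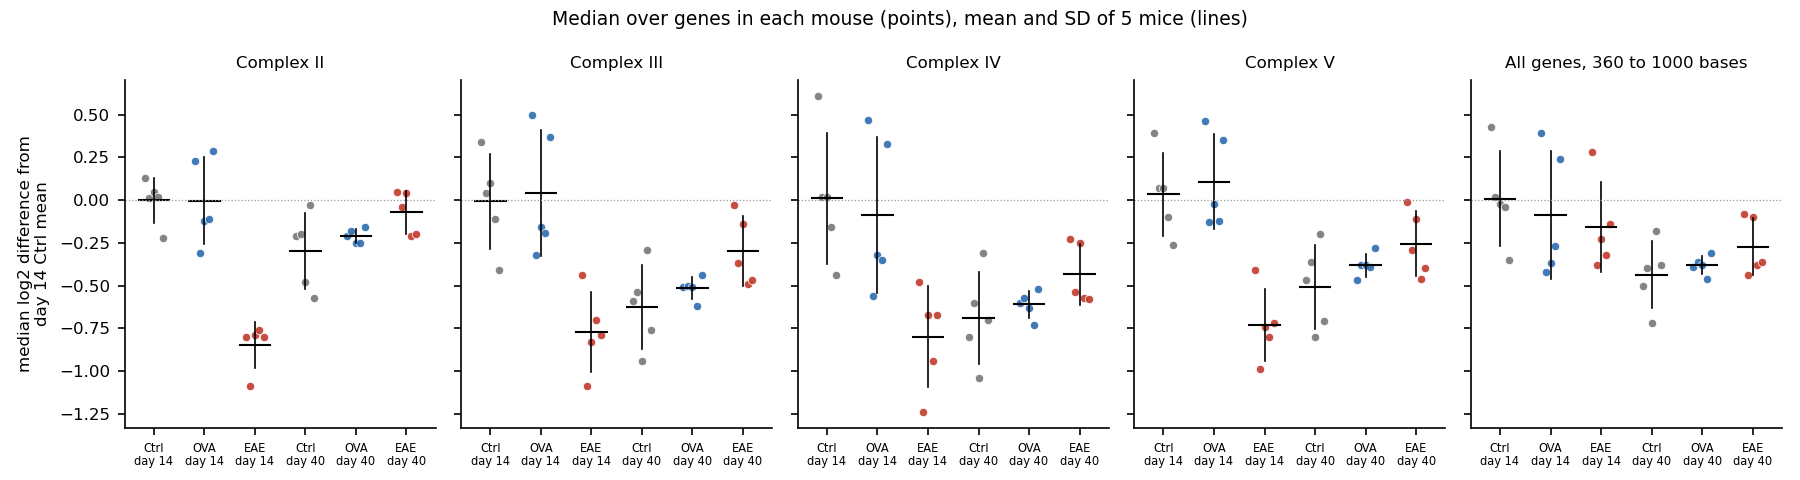
Median log2 difference from the day 14 Ctrl mean over the members of each complex, in each of the 30 mice, beside the median of all tested genes of 360 to 1000 bases, with the mean and SD of 5 mice as lines. On day 14 the EAE mice lie at -0.46 to -1.10 over all members, and the Ctrl and OVA mice spread from -0.41 to 0.46 together with the short genes.

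Short transcripts varied from mouse to mouse, and many members are short. Relative to the Ctrl mean, the median of all tested genes of 360 to 1000 bases ran from -0.42 to 0.43 in the Ctrl and OVA mice of day 14. Of the 45 members, 28 have exons of up to 1000 bases. Over all tested genes of 360 to 1000 bases the median difference was -0.14 (583 genes) for EAE vs. Ctrl and -0.04 (578 genes) for EAE vs. OVA on day 14, while it was -0.85 and -0.74 over the 27 tested members of up to 1000 bases, among them Uqcrh-ps1 with 268 bases. Over genes above 1000 bases it was 0.13 and 0.12, and over the 17 members above 1000 bases -0.70 and -0.77. On day 14 the difference of the members was thus below that of all tested genes of their length in both classes. On day 40, short genes were at 0.17 (EAE vs. Ctrl) and 0.13 (EAE vs. OVA) and the members of up to 1000 bases at 0.26 and 0.21, while all genes above 1000 bases were at -0.06 and -0.05 and the longer members at 0.22 and 0.15. From day 14 to day 40 the short genes were at -0.42 in Ctrl mice and -0.30 in OVA mice and the members of up to 1000 bases at -0.70 and -0.66, while all genes above 1000 bases were at 0.07 and 0.06 and the longer members at -0.30 and -0.31. With a correction for transcript length, 37 and 38 members were lower on day 14 (medians -0.64 and -0.69), and 19 fell between the days in Ctrl mice (median -0.17).

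**Figure D5:**
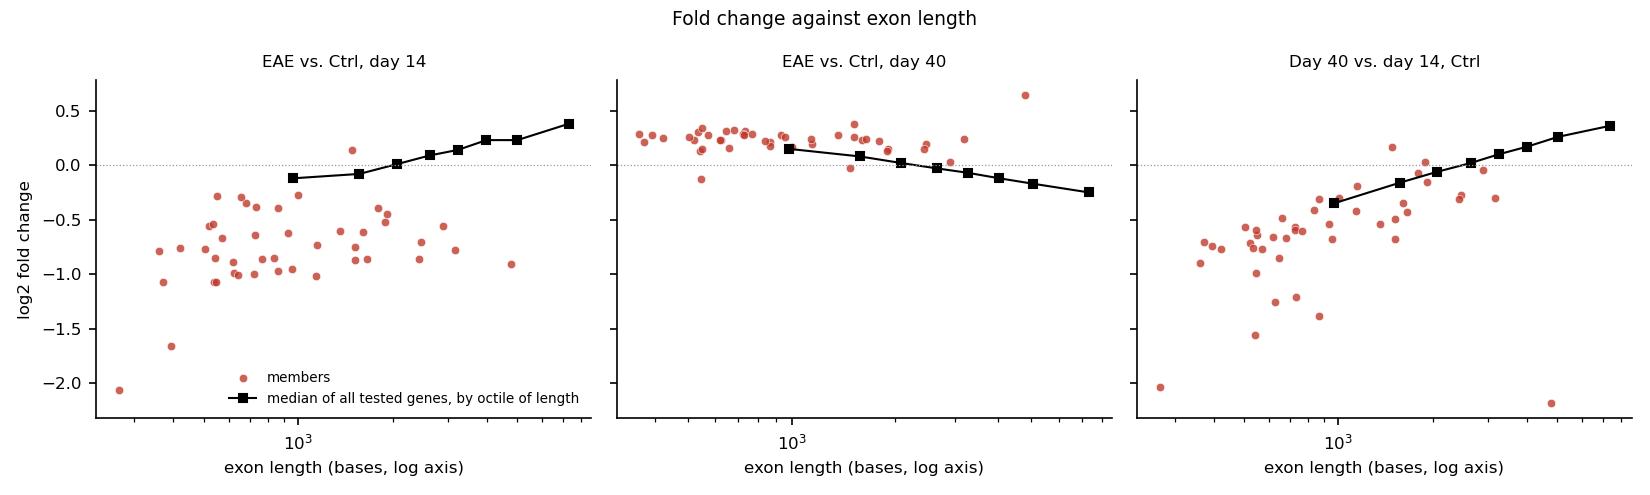
Log2 fold change against exon length (log scale) for the members, with the medians of all tested genes in 8 length classes, for EAE vs. Ctrl on day 14, EAE vs. Ctrl on day 40 and day 40 vs. day 14 in Ctrl mice. The class medians run from -0.12 to 0.38, from 0.15 to -0.25 and from -0.35 to 0.36 from the shortest to the longest genes, and on day 14 the members other than ATP5S lie below the class medians.

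Cell type markers were read beside these results, and their part in them was not tested. The 3 muscle fibre markers summed to 28312.1 to 36415.7 RPKM in EAE mice and 35994.5 to 40879.6 RPKM in Ctrl mice on day 14, and to at least 28213.2 RPKM in every mouse of either day. Of these 3, CKM was lower against Ctrl mice (-0.50, adjusted p = 0.00688) and OVA mice (-0.46, adjusted p = 0.0152). The 8 fast fibre markers summed to 41535.1 to 53723.1 RPKM in EAE and 56825.1 to 82478.1 RPKM in Ctrl mice, with 1 of 8 lower in limma's test, and the 8 slow fibre markers to 1208.7 to 2002.0 and 1871.4 to 3070.0 RPKM, with 3 lower and 1 higher. Of the erythrocyte markers 4 of 4 were lower (26.4 to 188.5 against 189.1 to 683.8 RPKM in sum), of the fibroblast markers 4 of 5 and of the macrophage markers 3 of 6, beside 19.0% of all tested genes lower and 28.8% higher. Against OVA mice the counts of these 5 lists were the same. Of the 6 adipocyte markers 5 were tested, and CFD and FABP4 were lower in both comparisons, with sums of 306.0 to 485.0 RPKM in EAE, 456.9 to 686.0 RPKM in Ctrl and 474.6 to 777.1 RPKM in OVA mice. Of the 5 endothelial markers 1 was lower against Ctrl and 2 against OVA mice. The 2 brown adipocyte markers summed to at most 5.34 RPKM and were not tested. Of the 5 neutrophil markers 4 were tested, and 4 were higher against Ctrl mice but only S100A8 against OVA mice (2.31, adjusted p = 0.000139, with a median of -0.21 over the 4), with sums of 210.0 to 397.0 RPKM in EAE, 62.4 to 211.7 RPKM in OVA and 3.41 to 7.53 RPKM in Ctrl mice. Lymphocyte markers summed to at most 3.96 RPKM on day 14.

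Genes that build or accompany the complexes but are not among the members did not all fall with them. Of 34 listed assembly factors 30 were tested, and 5 were lower and 4 higher in EAE than in Ctrl mice on day 14, with a median of -0.17, beside 19.0% lower and 28.8% higher of all tested genes. Against OVA mice 10 were lower and 2 higher (median -0.25), beside 15.3% and 23.8%. COX10, a heme-synthesis enzyme of complex IV assembly, changed by -0.68 (adjusted p = 8.21e-05), while cox19, a copper-handling assembly factor, rose by 0.82 from 41.1 to 74.6 RPKM (adjusted p = 0.00136). UQCC2, the assembly factor with the highest level, was at 252.1 and 243.5 RPKM in Ctrl and EAE mice (-0.06, adjusted p = 0.83). Of 6 other partners 4 were lower against Ctrl and 5 against OVA mice, among them cytochrome c (CYCS, -1.09, adjusted p = 0.000105) and CHCHD10 (-1.01, adjusted p = 0.000771). NDUFA4, a subunit of complex IV outside the symbol rule, gave -0.45 (adjusted p = 0.0695).

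The 6 mitochondrially encoded subunits of complexes III to V had a median of -0.11 against Ctrl and -0.31 against OVA mice on day 14. Only COX2 passed against Ctrl mice (-0.62, adjusted p = 0.0238) and 0 passed against OVA mice in limma's test. COX1, the catalytic subunit of complex IV, was at 15881.9 RPKM in Ctrl and 14892.6 RPKM in EAE mice (-0.04, adjusted p = 0.86). The libraries were selected for poly(A), which mitochondrial transcripts carry in short and variable form. Of 10 regulators of these genes 4 were lower and 2 higher against Ctrl mice, and 5 lower and 0 higher against OVA mice, beside the same shares of all tested genes (19.0% and 28.8%, and 15.3% and 23.8%). PERM1, a muscle co-regulator of oxidative genes, changed by -1.69 from 75.4 to 25.7 RPKM (adjusted p = 0.000157), and the nuclear receptor ESRRA by -0.88 from 68.1 to 37.2 RPKM (adjusted p = 0.000112). GABPA and YY1 rose by 0.50 (adjusted p = 0.0395) and 0.45 (adjusted p = 0.0243), and PPARGC1A (PGC-1α) gave -0.20 (adjusted p = 0.224).

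The 5 genes outside the module whose levels ran most like the mean of the members over the 30 mice were all subunits of complex I. They were NDUFS7 (Pearson r = 0.991), NDUFB2 (0.980), NDUFA5 (0.980), NDUFA11 (0.976) and NDUFB9 (0.975), out of 8401 genes. All mice contribute to both sides of these values, and the 5 genes have exons of 455 to 941 bases.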

How the data were processed

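EDL muscle of 30 mice was measured by poly(A) RNA-Seq. Paired-end reads were mapped by the authors with Subread (mm10), and RPKM came from featureCounts over RefSeq transcripts. The authors deposited 1 table of log2 values, whose scale, log2(RPKM + 1), was inferred from the values. Read on that scale, 54.9% of low values were whole reads within 0.05 read, against 45.6% as ln(RPKM + 1) and 33.3% as RPKM. They were converted back to RPKM on that reading, on which all levels rest. Reads per mouse, estimated from single-read values, had a median of 21600000. Counting error was not separated from the spread between mice and weighs most on short members of a few RPKM, such as Uqcrh-ps1. EdgeR, the study's tool, needs read counts, which were not used here.

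The 3 groups of a day were fitted together with limma 3.58.1 (lmFit and eBayes with trend) in R 4.3.3 on log2(RPKM + 0.1), for genes that averaged above 3 RPKM in 1 or more of the compared groups, with Benjamini-Hochberg adjustment over all tested genes. A gene passed when its adjusted p was below 0.05. How many of those also differed by over 1.5-fold was counted separately. Interactions and comparisons between days used all 30 mice. Isoform ratios were compared by two-sided exact permutation tests, adjusted over 30 comparisons. P-values set a difference between groups against the spread between the mice within groups. Every member could be named: in each complex the 3 with the largest and the 2 with the smallest differences on day 14, those that passed elsewhere, the isoform pairs and SDH genes, and from other lists at most 4 genes by level or change. The members and lists were chosen with earlier results of these data known. Exon lengths (GENCODE, 98.7% of genes) and coordinates (RefSeq) came from GRCm38, copies from blastn 2.17.0, and tables from Python 3.11.15 with pandas 2.3.3. The fits were tested on simulated data. Alternatives included pseudocounts, filters, scalings, length and GC corrections, other sample sets, a replicate block and leaving out each mouse. Protein sequences were not used here.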

Additional observations from a re-analysis of the deposited data

Results flagged for a closer look

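In 14 of 330 groups of 5 mice tested, 1 mouse stood apart from the other 4, with a gap above 0.71 of the group's range. Chance marks about 1 in 20 such groups. The low ones were EAE replicate 2 on day 14 for the median of complex II (-1.09 relative to the Ctrl mean), UQCRC1 (330.9 RPKM) and ATP5G2 (4.18 RPKM), and Ctrl replicate 3 on day 14 for the COX4I2/COX4I1 log2 ratio (-8.50). On day 14 the high ones were Ctrl replicate 1 for COX4I2 (10.3 RPKM) and COX6A2 (1935.6 RPKM), OVA replicate 5 for ATP5B (2533.6 RPKM), and EAE replicate 1 for Uqcrfs1 (394.0 RPKM) and COX7A2 (31.7 RPKM). On day 40 they were OVA replicate 5 for Uqcrfs1 (350.0 RPKM), Cox5a (757.4 RPKM) and ATP5SL (22.2 RPKM), and OVA replicate 1 for Uqcrh-ps1 (2.82 RPKM) and ATP5L (16.2 RPKM).

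The EAE effect itself differed between the days by limma's interaction test. It was higher on day 40 than on day 14 in 39 members against Ctrl mice and in 37 against OVA mice.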

How the results depend on the processing

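Of 8104 alternatives over 342 results, 7553 kept the direction and the side of the threshold, 464 lost the call, 27 gained one, 25 moved in size and 35 reversed. The day 14 counts held under the scaling, filter, pseudocount, length and GC alternatives (33 to 38 lower members against Ctrl, 30 to 38 against OVA, 0 higher). Without the 3 day 14 mice highest in short transcripts (replicate 1 of each group, chosen after seeing the data), 38 and 37 were lower. Quantile normalization moved the median of all tested genes in the interaction from -0.15 to -0.01 against Ctrl and from -0.16 to -0.02 against OVA, and between the days in EAE mice from -0.11 to -0.01. The causes of the changes below were not tested.

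The interaction median against Ctrl was 0.74 under quantile normalization and 0.70 with the length correction. On day 40 against Ctrl, the higher members numbered 0 with no filter on low values, quantile normalization, only the compared groups, all 30 mice in 1 model or the replicate block, 2 with median-of-ratios scaling and 3 with the GC correction, and those over 1.5-fold numbered 0 in the first 5 of these and with pseudocount 1. Between the days in Ctrl mice, 21 fell and 2 rose under quantile normalization and 19 and 1 with the length correction (medians -0.29 and -0.17). Over 1.5-fold these were 9 and 6, and 13 without the 3 mice. In OVA mice 16 fell under quantile normalization, and over 1.5-fold 9, 5 (length) and 8 (without the 3 mice). In EAE mice the 1 member that fell became 0 with no filter, median-of-ratios, quantile, length or GC, and over 1.5-fold also with pseudocount 1 and without the 3 mice. Reversed on day 14 were ATP5S (-0.01 in both comparisons, GC), and against OVA ATP5G2 (0.05, length, and 0.11 without the 3 mice) and COX6A2 (0.11, quantile). Between the days in Ctrl mice ATP5A1 (0.10, quantile), COX6C and COX7A2 (both 0.01, length) reversed. The COX4I2/COX4I1 ratio on day 40 against Ctrl was 0.00 with pseudocount 0.01, and ATP5G1/ATP5G3 on day 14 with the length correction was -0.32 (EAE against Ctrl), -0.25 (EAE against OVA) and -0.07 (OVA against Ctrl).

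Leaving out 1 mouse at a time, higher members on day 40 against Ctrl ran from 0 to 28 (over 1.5-fold 0 to 1), members that fell between the days from 22 to 37 in Ctrl (12 to 28), 12 to 34 in OVA (5 to 22) and 0 to 1 in EAE mice (0 to 1). ATP5G2 against OVA on day 14 ran from -0.22 to 0.14. COX6A2/COX6A1 on day 40 ran from -0.00 to 0.07 (EAE vs. Ctrl) and -0.07 to 0.03 (EAE vs. OVA). COX8B/COX8A ran from -0.21 to 0.03 (OVA vs. Ctrl, day 14), -0.02 to 0.14 (EAE vs. OVA, day 40) and -0.01 to 0.15 (OVA vs. Ctrl, day 40). COX4I2/COX4I1 ran from -0.20 to 0.17 (EAE vs. Ctrl, day 40), and ATP5G1/ATP5G3 from -0.12 to 0.16 (EAE vs. OVA, day 14), -0.07 to 0.20 (OVA vs. Ctrl, day 14) and -0.09 to 0.12 (EAE vs. OVA, day 40).

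With the replicate number as a block, 37 and 38 members were lower on day 14 and 39 and 38 changed between the days. The deviations of same-numbered mice correlated at 0.507, 0.692 and 0.607 for replicate 1 in the 3 comparisons of day 14, at -0.716 to 0.444 for the other numbers and at -0.547 to 0.180 on day 40. In no comparison were all 5 over 0.1, so the numbers were not taken to pair the mice.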
